A study of Mus musculus with 19 samples.

Results

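The high dose against low dose contrast set the liver microRNAs (miRNAs) of 5 mice given dibenz[a,h]anthracene (DB[a,h]A) at 25 mg/kg per day against those of 5 mice given 6.25 mg/kg per day. The members were chosen by the dose in the array titles, which gave 10 of the 19 arrays of the series, and all 696 mouse miRNAs on the array were examined. All 10 mice were male MutaMouse, a transgenic line (strain 40.6) that carries a reporter gene for scoring mutations, and were 10 weeks old per the labels. Both groups received DB[a,h]A in olive oil by oral gavage every day for 28 days, and the livers were collected 3 days after dosing ended. By their labels the groups differ in dose alone, by 4-fold, and no control array entered the contrast. Each array was hybridised with labelled RNA from part of the liver of 1 mouse, so the samples are bulk tissue, in which fewer cells of a type and less RNA per cell cannot be told apart. The contrast asks which miRNAs still differ between a low and a high dose when both groups received the compound.

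DB[a,h]A is a polycyclic aromatic hydrocarbon. It binds the aryl hydrocarbon receptor, which switches on cytochrome P450 genes in the liver, and the enzymes made from them turn it into reactive metabolites that bind DNA. DNA damage activates the transcription factor p53, and Mir34a is among the miRNA genes that p53 switches on directly. A mature miRNA pairs with messenger RNAs mainly through its seed, bases 2 to 8, and lowers their translation or stability, so miRNAs with the same seed share many targets.

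The mature sequences below are those on which the results turn: the miRNA called in the contrast, a member of its family with the same seed, the miR-30 and miR-29 family members whose values are compared, both strands of the let-7b hairpin, and a dim miRNA from each end of the ranking. They were copied 5′ to 3′ from RefSeq (GRCm38.p6), with the seed in capitals.
miR-34a-5p: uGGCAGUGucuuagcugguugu
miR-34b-5p: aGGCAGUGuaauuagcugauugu
miR-30a-5p: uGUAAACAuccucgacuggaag
miR-30c-5p: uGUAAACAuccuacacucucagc
miR-30e-5p: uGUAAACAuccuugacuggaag
miR-29a-3p: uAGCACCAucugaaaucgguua
miR-29b-3p: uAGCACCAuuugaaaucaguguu
miR-29c-3p: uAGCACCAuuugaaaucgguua
let-7b-5p: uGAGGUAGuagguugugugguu
let-7b-3p: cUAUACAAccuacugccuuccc
miR-1839-5p: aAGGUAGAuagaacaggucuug
miR-1895: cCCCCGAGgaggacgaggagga
The mature miR-34a lies on the plus strand at chr4:150068473-150068494 in the gene Mir34a. The miR-30e sequence lies on the minus strand at chr4:120772660-120772681, near a copy of miR-30c at chr4:120769584-120769606. Both let-7b strands come from Mirlet7b, the guide strand at chr15:85707325-85707346 and the passenger strand, which the array names let-7b*, at chr15:85707379-85707400.

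A level is given as the log2 of a miRNA's signal divided by the 75th percentile signal of its own array, so 0 means a signal equal to that percentile. Brightness depends on the probe as well as on the RNA, so levels of different miRNAs are not compared. A miRNA was detected on an array where at least 50% of the spots of a probe were well above background. Of the 696 miRNAs, 501 were detected on none of the 10 arrays, 123 on all 10, and the 148 detected on at least 5 were tested. Pairs of arrays of the same dose correlated with r from 0.968 to 0.997 over these 148 miRNAs, and pairs of different doses with r from 0.968 to 0.992.

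The arrays of the high dose were dimmer before any scaling. Their 75th percentile signal was 206, 201, 168, 133 and 192 intensity units in replicates 7, 8, 15, 16 and 23. On the low dose arrays it was 204, 348, 317, 329 and 202 in replicates 3, 11, 12, 18 and 24. The log2 percentile was 7.47 ± 0.26 (SD, n = 5) at the high dose and 8.09 ± 0.39 (SD, n = 5) at the low dose, with an exact two-sided permutation p of 0.0317 and an adjusted p of 0.0423 over 4 such measures. Within slides the difference was -0.62, with an adjusted exact p of 0.123. The number of detected miRNAs was 138 ± 12.2 (SD, n = 5) against 165 ± 12.8 (SD, n = 5), with an adjusted exact permutation p of 0.0423, or 0.123 within slides. As a result 63 miRNAs were detected on more low dose than high dose arrays and 2 on more high dose arrays. The labelling spike-in, an RNA added in fixed amount before labelling, did not overlap between the doses: its log2 signal lay between 11.3 and 11.8 at the high dose and between 12.0 and 12.4 at the low dose, with an adjusted exact permutation p of 0.0317, or 0.0741 within slides. Its unadjusted exact p within slides was 0.0185, the smallest that the 54 arrangements allow. The hybridisation spike-in was 14.5 ± 0.40 against 14.9 ± 0.30 (SD, n = 5 each), with an adjusted exact permutation p of 0.198. All 5 high dose arrays lay in row 2 of their slides, and 4 of the 5 low dose arrays lay in row 1, so dose and slide row can hardly be told apart.

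**Figure D1:**
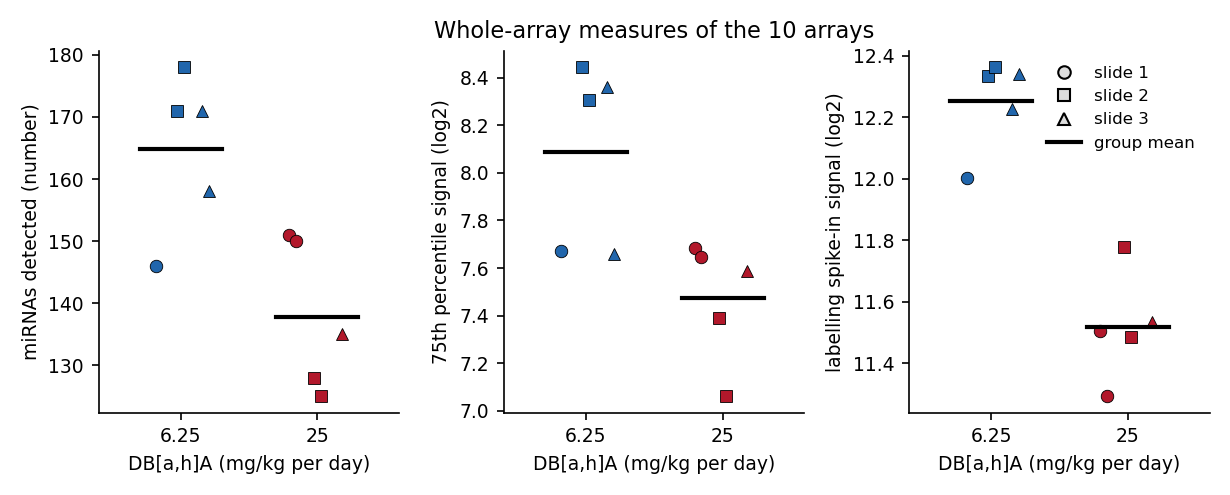
Number of detected miRNAs, log2 75th percentile signal and log2 labelling spike-in signal of the 10 arrays by dose in mg/kg per day; points are arrays, marker shapes the 3 slides and lines the group means. The labelling spike-in lies below 11.8 on every high dose array and at or above 12.0 on every low dose array.

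The hepatocyte miRNA miR-122 lay between 6.52 and 7.04 on the 10 arrays, but 3 arrays stood apart by miRNAs of other tissues. In the miR-200 family, which marks epithelium such as bile duct, miR-200a was at 0.20 in high dose replicate 8 and at -0.79 in low dose replicate 3. On the other 8 arrays miR-200a lay between -4.14 and -3.22. The relatives miR-200c and miR-141 were detected on those 2 arrays only, and miR-429 on these and 1 other low dose array. The muscle miRNA miR-1 was at 1.80 in low dose replicate 11, against -2.49 in high dose replicate 8, -4.12 in low dose replicate 3 and the detection floor of -4.69 on the other 7 arrays. The muscle miRNA miR-133b was at -0.10 in low dose replicate 11. The pancreatic miRNAs miR-216a, miR-216b, miR-217 and miR-375 were detected on no array.

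**Figure D2:**
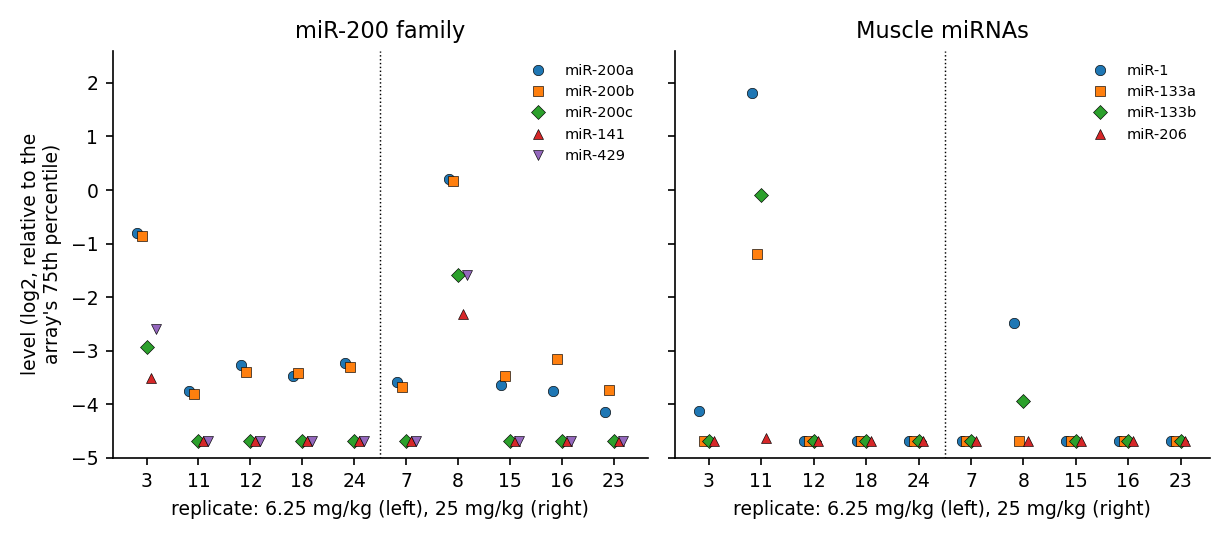
Levels of 5 miR-200 family members and 4 muscle miRNAs on each of the 10 arrays (log2, relative to the array's 75th percentile), with low dose replicates on the left and high dose replicates on the right of each panel. The miR-200 family stands out in low dose replicate 3 and high dose replicate 8, and the muscle miRNAs in low dose replicate 11.

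Of the 148 miRNAs tested, 1 was called at an adjusted p under 0.05 (limma, slide as a block), which is 0.676% of those tested, and it was miR-34a. The level of miR-34a at the high dose was 0.36, 0.24, -1.02, -0.21 and -0.36 in replicates 7, 8, 15, 16 and 23. At the low dose it was -0.60, -2.80, -2.78, -2.87 and -2.90 in replicates 3, 11, 12, 18 and 24. Thus 4 of the 5 low dose mice lay within 0.12 of each other and below every high dose mouse, while low dose replicate 3 lay above high dose replicate 15, so the groups overlap by this mouse. The mean was -0.20 ± 0.55 (SD, n = 5) at the high dose and -2.39 ± 1.00 (SD, n = 5) at the low dose. With slides as a block, miR-34a was higher at the high dose by 1.91 on the log2 scale (SE 0.27, 95% interval 1.30 to 2.51, limma adjusted p = 0.0109), a fold of 3.75 with an interval of 2.46 to 5.71.

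The difference in miR-34a was positive on each slide, at 0.90 on slide 1, 2.17 on slide 2 and 2.52 on slide 3. Slide 1 holds low dose replicate 3. An exact two-sided permutation test gave p = 0.0159 over 252 arrangements of the doses, for which the smallest possible p is 0.00794. The exact test within slides gave p = 0.0185, the smallest that the 54 arrangements allow. A second probe of miR-34a gave -1.07 ± 0.61 (SD, n = 5) at the high dose and -3.25 ± 1.01 (SD, n = 5) at the low dose, with the same exact permutation p of 0.0159. All 5 arrays of each dose detected miR-34a.

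Whether miR-34a passed the threshold depended on the arrays and the blocks in the fit. Without low dose replicate 3, which carried miR-200 family signal, the difference was 2.31 (limma adjusted p = 0.000556). Without high dose replicate 8 it was 1.998 (adjusted p = 0.0131), and without low dose replicate 11, the array with muscle miRNAs, 1.86 (adjusted p = 0.0574). Leaving out all 3 of these arrays gave 2.34 (adjusted p = 0.0113). The call was also lost without low dose replicate 12 (1.87, adjusted p = 0.0560) or high dose replicate 23 (1.66, adjusted p = 0.0879), with no slide block (2.19, adjusted p = 0.0827), with slide as a random block (2.15, adjusted p = 0.0637) and with slide row added as a block (2.21, adjusted p = 0.251). With normexp background the difference shrank to 1.07 (adjusted p = 0.0570), and in the deposited log2 value table it was 1.18 (adjusted p = 0.000411).

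For reference, miR-34a in the groups outside the contrast lay between -4.08 and -3.69 in the 5 mice given olive oil alone and between -1.46 and 0.12 in the 4 mice given 12.5 mg/kg per day. Low dose replicate 3 at -0.60 thus lay within the range of the middle dose, and the other 4 low dose mice lay above every olive oil mouse. Fits that also used the middle dose arrays, or all 19 arrays, for the spread and the slide effects gave 1.92 (limma adjusted p = 0.00398) and 1.98 (adjusted p = 0.000491). The latter fit included the olive oil arrays, unlike the main contrast. The family members miR-34b-5p, with the same seed as miR-34a, and miR-34b-3p, miR-34c and miR-34c* were detected on none of the 10 arrays.

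**Figure D3:**
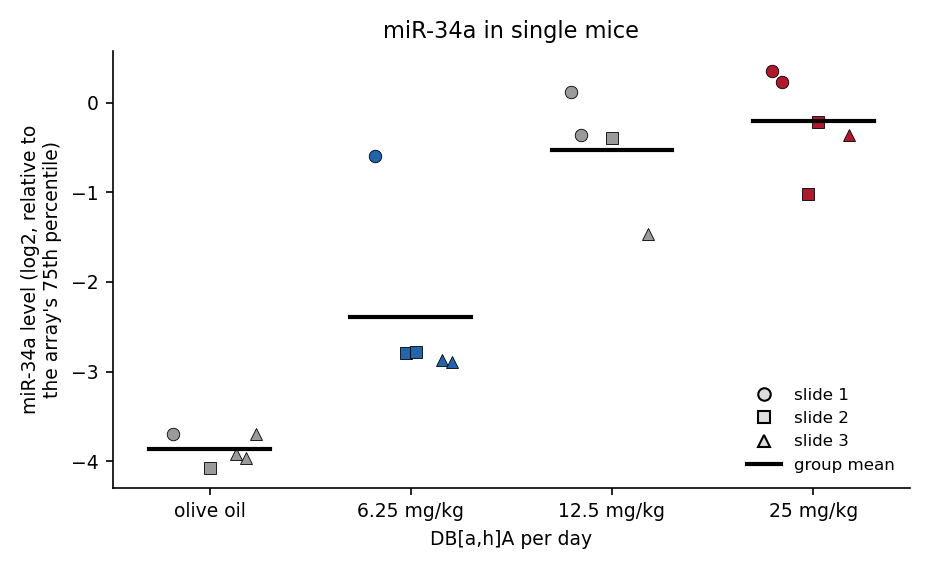
Level of miR-34a in each of the 19 mice (log2, relative to the array's 75th percentile) by dose; marker shapes give the 3 slides, lines the group means, and grey points the groups outside the contrast. The high dose mice lie between -1.02 and 0.36, and 4 of the 5 low dose mice lie between -2.90 and -2.78, with the fifth at -0.60.

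Apart from miR-34a no miRNA was called by limma in either direction. Before adjustment 18 miRNAs were higher at the high dose with p under 0.05 (12.2% of those tested) and 14 were lower (9.46%), miR-34a among the former, and the next lowest adjusted p was 0.154. The median difference over all 148 was 0.01. The 95% interval lay wholly inside a 2-fold change for 137 of the 148 and inside a 1.5-fold change for 113. The 11 whose interval reached past 2-fold include miR-34a, miR-144, let-7b*, let-7f-1*, miR-200a and miR-200b. For miR-200a the interval ran from -1.99 to 0.87, as the 2 arrays described above, 1 of each dose, set its spread.

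A group of dim miRNAs, 0 of them called by limma, had positive differences after scaling. Of the 18 miRNAs higher at an unadjusted p under 0.05, 16 belonged to the dimmer 74 of the 148 by mean level, with levels from -4.41 to -3.13 and differences from 0.34 to 0.65. Their unscaled signals differed by -0.25 to 0.03, and 15 of the 16 lay within 0.15 of 0, while the median unscaled difference over all 148 miRNAs was -0.59. All 18 were higher at the high dose on each of the 3 slides, as were 27 of all 148 tested, these 18 included. The 18 were chosen by p from a fit with slide as a block, which favours such agreement. The median scaled difference of the 18 was 0.22 on slide 1, 0.98 on slide 2 and 0.28 on slide 3, where slide 2 holds the brightest low dose array and the dimmest high dose array. With the log2 75th percentile signal of the array as a covariate the differences were smaller: 0.19 for let-7b*, 0.10 for let-7f-1*, 0.13 for miR-291b-5p, 0.12 for miR-149, 0.12 for miR-700, 0.16 for miR-409-3p and 0.25 for miR-1895. In the same fit miR-34a differed by 1.49 (limma adjusted p = 0.239).

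The level of let-7b*, the passenger strand of a let-7 hairpin, was -3.11, -3.23, -3.21, -2.56 and -3.22 in high dose replicates 7, 8, 15, 16 and 23. In low dose replicates 3, 11, 12, 18 and 24 it was -3.54, -3.99, -3.83, -3.86 and -3.33. The groups did not overlap, yet the difference of 0.65 (SE 0.18, 95% interval 0.23 to 1.07) had a limma adjusted p of 0.154, and the unscaled difference was 0.03. The guide strand let-7b, from the same hairpin, differed by 0.09. Within single arrays the log2 ratio of let-7b* to let-7b was higher at the high dose by 0.56 within slides. Scaling by 1 factor per array does not change this value, though the treatment of background and floor can. With normexp background let-7b* differed by 0.26 (limma adjusted p = 0.888), and with a floor 4 times higher by 0.03. The ratio is given as a description, since the pair was chosen after its values were seen.

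The other dim miRNAs with the lowest p had values close to those of let-7b*. The passenger strand let-7f-1* was higher by 0.62, miR-291b-5p by 0.59, miR-149 by 0.58, miR-700 by 0.54, miR-409-3p by 0.47 and miR-1895 by 0.34, each with a limma adjusted p of 0.154. Without scaling miR-291b-5p, miR-149, miR-700 and miR-1895 turned to lower values, of -0.03, -0.04, -0.07 and -0.25. Of these, miR-1895 was detected on 3 of the 5 high dose arrays and miR-409-3p on 3 high dose and 4 low dose arrays. Of the 14 passenger strands tested (names ending in a star), 4 were higher and 1 lower at an unadjusted p under 0.05, and their median difference was 0.08. Of the 134 other miRNAs tested, 14 were higher and 13 lower at that p, with a median of -0.01.

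**Figure D4:**
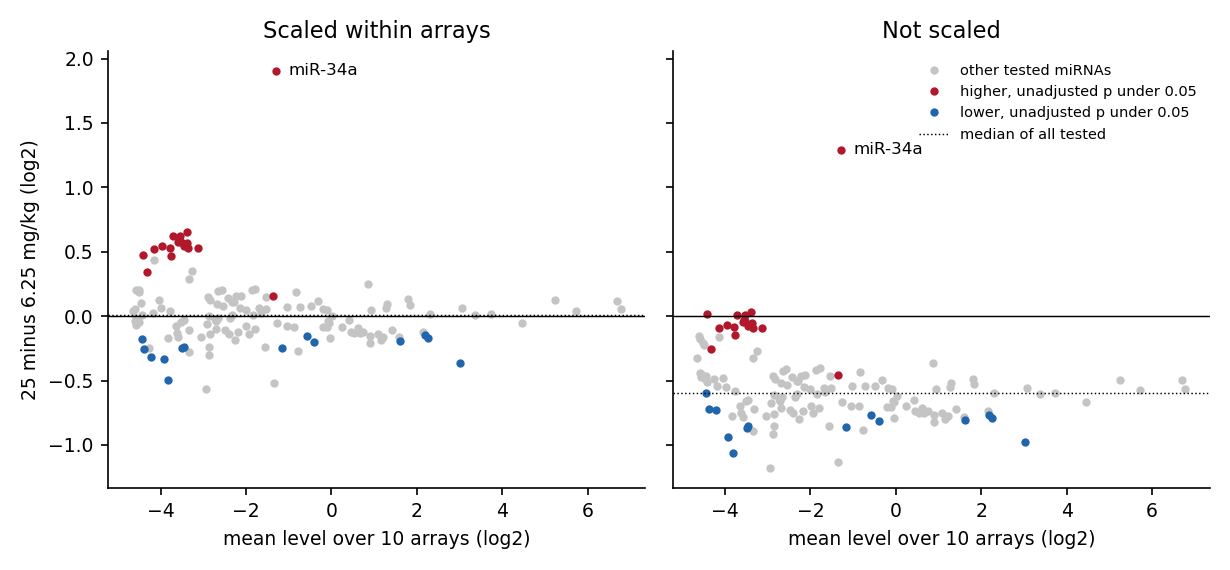
Difference between the doses (25 minus 6.25 mg/kg per day, log2) against the mean level over the 10 arrays for the 148 tested miRNAs, scaled within arrays on the left and unscaled on the right; dotted lines give the medians of 0.01 and -0.59. The 16 dim miRNAs in red lie at 0.34 to 0.65 after scaling and at -0.25 to 0.03 without it, and miR-34a lies at 1.91 and 1.29.

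Counted by overlap, 6 miRNAs had every high dose array above every low dose array (4.05% of those tested): let-7b*, let-7f-1*, miR-291b-5p, miR-409-3p, miR-668 and miR-700. All 6 were dim, and miR-668 is named only because it completes this count. In the other direction 1 miRNA (0.676%) had every high dose array below every low dose array, miR-126-3p, the endothelial miRNA encoded in an intron of Egfl7. It was 1.48, 1.55, 1.57, 1.38 and 1.59 in high dose replicates 7, 8, 15, 16 and 23 and 1.71, 1.68, 1.76, 1.69 and 1.71 in low dose replicates 3, 11, 12, 18 and 24. The difference of -0.19 (SE 0.06, 95% interval -0.34 to -0.05) had a limma adjusted p of 0.154.

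The miRNAs lower at an unadjusted p under 0.05 spread over dim and bright signals, 7 in each set of 74. Their differences were small, from -0.50 to -0.15. Of the 14, 12 were lower on each of the 3 slides, as were 34 of all 148 tested, these 12 included. Choice by p from the fit with slide as a block favours such agreement. Without scaling all 14 were lower still, from -1.07 to -0.60, where the median over all 148 was -0.59. With the labelling spike-in as the scale all 14 also stayed below 0. Both settings move all miRNAs above the floor by the same amount, so these signs add little to the scaled values. The dim miR-1839-5p differed by -0.26, miR-203 by -0.25, miR-199a-5p by -0.33, miR-142-5p by -0.32 and miR-27a by -0.20, with limma adjusted p from 0.154 to 0.171. Under quantile normalization miR-1839-5p at -0.42 and miR-203 at -0.44 were called (adjusted p = 0.0299 for both), and miR-203 was also called with the total gene signal of the scanner files at -0.53 (adjusted p = 0.0123). Of these, miR-1839-5p was detected on 2 of 5 high dose arrays, and miR-199a-5p and miR-142-5p on 3.

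The miR-30 family, whose 3 printed members share the seed GUAAACA and which is abundant in epithelial tissues, did not share a direction. The level of miR-30e was -1.70, -1.82, -1.09, -1.04 and -1.11 in high dose replicates 7, 8, 15, 16 and 23. In low dose replicates 3, 11, 12, 18 and 24 it was -1.47, -0.89, -0.86, -0.92 and -0.72. The slide 1 arrays, replicates 3, 7 and 8, were the lowest of all 10, and within each slide the high dose arrays lay below the low dose arrays. The difference was -0.25 (SE 0.06, 95% interval -0.40 to -0.10, limma adjusted p = 0.154). Its neighbour in the genome, miR-30c, differed by 0.16 the other way after scaling, though by -0.46 without it, and the 5 tested members had a median of -0.13 against 0.01 over all 148.

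Within single arrays the log2 ratio of miR-30e to miR-30c was 0.62, 0.33, 0.27, 0.15 and 0.48 in low dose replicates 3, 11, 12, 18 and 24. It was 0.38, 0.17, -0.13, -0.10 and -0.12 in high dose replicates 7, 8, 15, 16 and 23. On every slide the high dose ratios lay below the low dose ratios, and the difference within slides was -0.40; the pair was chosen after its values were seen and no test is given. The same family differed between slides. With dose in the model, miR-30c, miR-30b and miR-30e were lower on slide 1 than on the other slides by -1.02, -0.91 and -0.66, the 3 lowest of the 148. In the other direction miR-200a and miR-200b were higher on slide 1 by 2.35 and 2.08, and miR-34a by 1.40. The miR-200 values were high in replicates 3 and 8 only. In replicate 7, also on slide 1, miR-200a at -3.59 and miR-200b at -3.67 lay within the range of the other slides.

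The 3 members of the miR-29 family, which share the seed AGCACCA and are known for holding down collagen messenger RNAs, had differences below 0. This held under each of the 6 scalings, but all except quantile normalization move every miRNA above the floor by the same amount. Under quantile normalization their median difference was -0.10. The level of miR-29a was 2.21, 2.30, 2.18, 2.07 and 2.17 in high dose replicates 7, 8, 15, 16 and 23. It was 2.47, 2.26, 2.28, 2.35 and 2.32 in low dose replicates 3, 11, 12, 18 and 24, and high dose replicate 8 was the array that overlapped the low dose range. The differences were -0.17 for miR-29a, -0.15 for miR-29b and -0.16 for miR-29c, with a median of -0.16 against 0.01 over all 148. Of the 3, 2 had an unadjusted limma p under 0.05 and 0 were called. Over all 148 tested, 14 (9.46%) were lower at that p.

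Among the miRNAs linked to p53, 7 of 13 could be tested, 1 was called higher and 0 lower, and their median difference was -0.09. Besides miR-34a, the p53-induced miR-192 differed by 0.01 (95% interval -0.18 to 0.20) and its cluster partner miR-194 by -0.10. The values were -0.11 for miR-15a and -0.08 for miR-16, whose maturation p53 is known to aid. The list member miR-143 differed by -0.16. Thus miR-34a was the 1 tested member of this list with an unadjusted p under 0.05.

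The 10 hepatocyte miRNAs were all tested and 0 were called in either direction, with a median of -0.02, 5 above 0 and 5 below. The brightest of them, miR-122, was 6.80 ± 0.20 (SD, n = 5) at the high dose and 6.76 ± 0.13 (SD, n = 5) at the low dose, a difference of 0.05 with a 95% interval of -0.21 to 0.31. For miR-22 the difference was -0.05 (95% interval -0.34 to 0.23). For all 10 the interval stayed within 0.52 of 0 on the log2 scale, which is inside 1.5-fold. Without scaling all 10 were lower, like most of the 148. The other 2 of the 3 brightest miRNAs, miR-1937b and miR-720, differed by 0.12 and 0.04.

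The 9 let-7 family members, which restrain growth genes, differed by -0.12 to 0.14, with a median of 0.05, 7 above 0 and 0 called. They turned to lower values under no scaling and under the percentile of all probes. The 8 tested members of the miR-17 clusters, known as oncogenic miRNAs, differed by -0.13 to just under 0, with a median of -0.09 and 0 called. All 8 lay below 0 as scaled here and 5 of 8 when scaled to the labelling spike-in. The miR-15/16 family had 6 tested members and a median of -0.10, and the miR-23, miR-27 and miR-24 clusters had 5 and a median of -0.12, with 0 called in both.

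**Figure D5:**
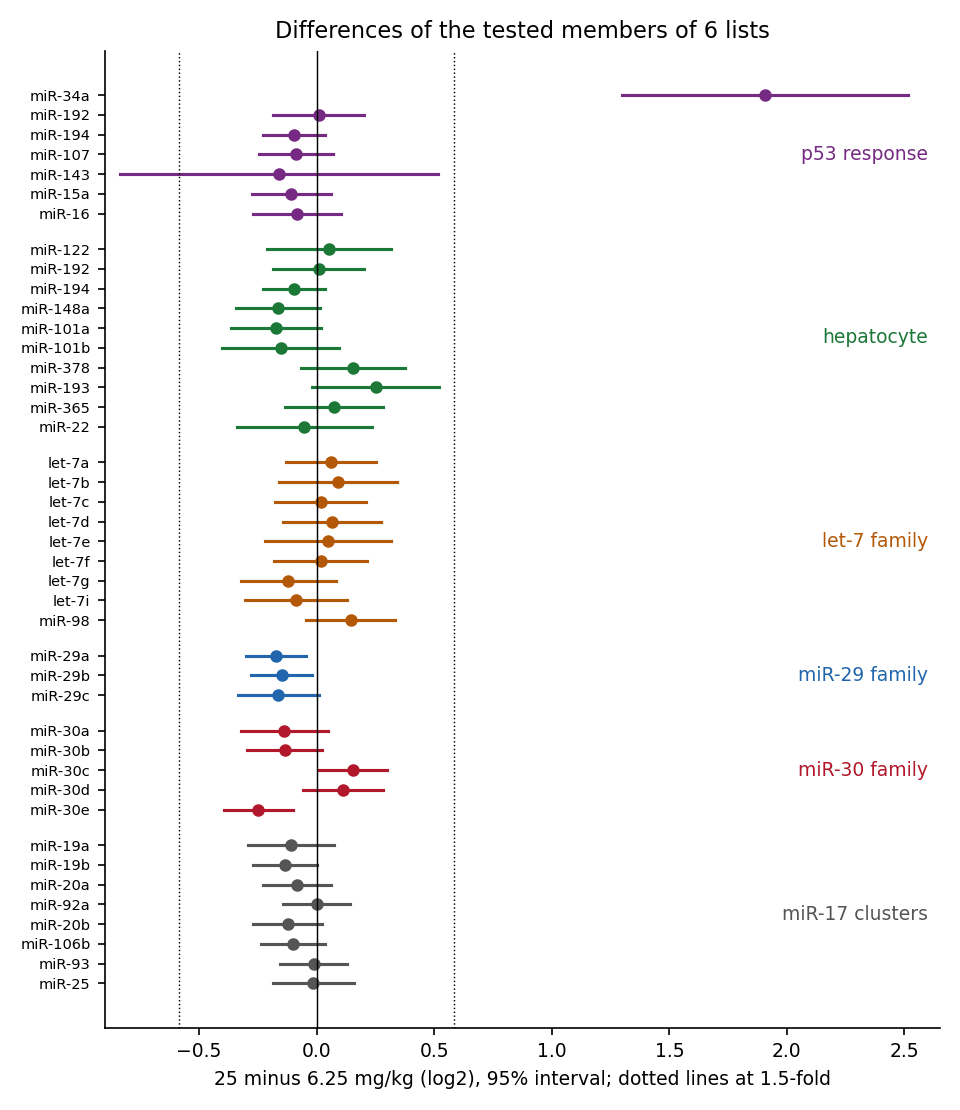
Difference between the doses (25 minus 6.25 mg/kg per day, log2) with its 95% limma interval for the tested members of 6 lists; dotted lines mark a 1.5-fold change in each direction. The interval of miR-34a starts at 1.30, while those of the hepatocyte, let-7, miR-29, miR-30 and miR-17 members all lie between the dotted lines.

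Of the 5 miRNAs linked to the aryl hydrocarbon receptor, the array carries 4, of which miR-132, miR-182 and miR-183 were detected on no array. The tested member, miR-96, differed by -0.13 (95% interval -0.76 to 0.49). Of 7 miRNAs linked to liver tumours, 5 were detected on no array. The inflammation and tumour miRNA miR-21 was 5.29 ± 0.26 (SD, n = 5) at the high dose and 5.19 ± 0.22 (SD, n = 5) at the low dose, a difference of 0.12 with a 95% interval of -0.24 to 0.48. For miR-221 it was -0.14 (95% interval -0.40 to 0.11). In the stress and inflammation list 3 of 6 could be tested, 0 were called, and the neutrophil miRNA miR-223 differed by 0.06. The miR-10, miR-99, miR-100 and miR-125 members had a median of -0.05 over 5 tested, with miR-99a at -0.15 and miR-125b-5p at -0.05. Of the 22 miRNAs of the imprinted Dlk1-Dio3 cluster, 19 were detected on no array, and the 2 tested were miR-409-3p and miR-494, the latter at 0.05.

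The tested markers of cells other than hepatocytes were mostly lower at the high dose, with 0 called by limma in any list. Of all 148 miRNAs tested, 73 were lower, and the median difference was 0.01. The summed stromal, leukocyte and biliary levels overlapped between the doses, and each had its highest value at the high dose. The erythroid miRNAs miR-451 and miR-144 differed by -0.36 (95% interval -0.72 to -0.0021) and -0.52 (95% interval -1.13 to 0.09). The summed level of the 2 erythroid markers on the array ranged from 2.66 to 3.19 at the high dose and from 2.71 to 3.49 at the low dose. All 4 tested stromal markers lay below 0, with a median of -0.20, among them miR-199a-3p at -0.24 and miR-143 at -0.16, while miR-145 was detected on no array. Their summed level ranged from -0.99 to -0.23 at the high dose and from -0.77 to -0.55 at the low dose. The summed endothelial level, of miR-126-3p and miR-126-5p, ranged from 1.40 to 1.61 against 1.70 to 1.78 and did not overlap. This sum repeats miR-126-3p, the 1 miRNA (0.676% of those tested) without overlap in that direction. The untested miR-126-5p was detected on 0 high dose and 3 low dose arrays. Of 6 leukocyte markers 4 were tested, with a median of -0.06 and miR-142-3p at -0.04, and miR-150 and miR-155 were detected on no array; their summed level ranged from 0.54 to 1.02 against 0.74 to 0.83. The biliary list adds miR-31 and miR-203 to the miR-200 family, which alone was planned as the biliary marker set. Both added members had a low unadjusted limma p (0.0369 and 0.00770), and the list median rests partly on them. The 4 tested members of the list were miR-200a (-0.56), miR-200b (-0.24), miR-31 (-0.24) and miR-203 (-0.25), with a median of -0.24. For miR-200b the plain group means went the other way, at -2.77 at the high dose and -2.96 at the low dose. So did the means of the untested miR-200c (-4.07 against -4.34), miR-141 (-4.22 against -4.45) and miR-429 (-4.07 against -4.27). The list summed to between -1.25 and 1.72 against -1.12 and 0.75. These erythroid, stromal, endothelial and biliary medians kept their sign under each of the 6 scalings. Apart from quantile normalization, these scalings move all miRNAs above the floor by the same amount, so a kept sign adds little. Under quantile normalization the medians were -0.40, -0.29, -0.12 and -0.46. The part of these markers in the other differences was not tested.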

How the data were processed

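Per the file headers, Agilent Feature Extraction 10.7.3.1 read the 1-colour arrays and gave background-subtracted signal intensity per spot, deposited without scaling between arrays. The authors also deposited a table of log2 values by an unstated method, used as an alternative. Control spots were removed. A probe had 5 to 20 spots, and those left after removal of outlier spots were averaged. The averages were scaled by the array's 75th percentile, taken over 230 probes with signal on all 10 arrays. Values below a floor of -4.69 (log2) were raised to it. The brightest of 1 to 4 probes stood for each miRNA. The test was limma 3.58.1 (R 4.3.3, lmFit, eBayes, slide as a fixed block, 6 residual degrees of freedom, two-sided, Benjamini-Hochberg over the 148 miRNAs tested), checked on simulated data. Whole-array measures and miR-34a also had exact permutation tests. The text names called miRNAs, the 8 lowest p in each direction, the 2 brightest tested members of each list and the 3 brightest miRNAs. It also names miR-34a, miR-122, miR-21 and miR-192, members of printed families, markers of arrays that stood apart and further members of marker lists. Members and lists were chosen with earlier results of these data known. RefSeq names matched all 12 sequences sought. The number of arrays limits the precision, and 0 spots were saturated. Alternatives covered scaling, background, detection filter, blocks, probes and left-out arrays.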

Additional observations from a re-analysis of the deposited data

Results flagged for a closer look

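In these groups of 5, a value whose gap to its nearest neighbour takes up most of the group's range was marked; chance marks about 1 in 20 groups, and 15 marks arose in the 90 groups examined. Low dose replicate 3 carried 5 of them: miR-34a at -0.60 (next -2.78), miR-200a at -0.79 (next -3.22), miR-200b at -0.86 (next -3.30), miR-30e at -1.47 (next -0.92) and miR-125b-5p at -0.30 (next 0.06). High dose replicate 8 was the highest of its group for miR-200a at 0.20 (next -3.59), miR-200b at 0.18 (next -3.16), miR-143 at -1.75 (next -3.26) and miR-494 at -4.17 (next -4.57). High dose replicate 16, the dimmest array, was the highest for let-7b* at -2.56 (next -3.11) and miR-409-3p at -3.59 (next -4.24), and high dose replicate 7 the lowest for miR-125b-5p at -0.55 (next -0.07). In low dose replicate 24 miR-30a was the lowest at 1.06 (next 1.18), and miR-409-3p at -4.45 and miR-494 at -4.43 were the highest, where the other 4 arrays of the group were at the floor of -4.69.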

How the results depend on the processing

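In 35 alternative fits miR-34a stayed higher at the high dose, by 1.07 to 2.34. It lost the call with normexp background (1.07), detection on at least 1 array (1.91), no detection filter (1.91), the scanner's detection flag (1.91), no slide block (2.19), a random slide block (2.15), slide and row as blocks (2.21), a floor 4 times higher (1.81), array signal as a covariate (1.49), without slide 2 (1.71) or slide 3 (1.66); each left 0 calls. Slide 1 alone gave 0.90. Leaving out each array gave 1.66 to 2.31, with 0 or 1 call. Calls numbered 43 (2 higher, 41 lower) with the percentile of all probes, whose median difference was -0.22, 85 (1 higher, 84 lower) unscaled, 3 (1 higher, 2 lower) with quantile normalization and 2 (1 higher, 1 lower) with gTotalGeneSignal. Intervals inside 1.5-fold numbered 17 unscaled, 55 with the labelling spike-in, 61 with slide row and 645 of 696 unfiltered, and 100 to 114 with each array left out. Unscaled, 9 miRNAs turned to called lower values: miR-192 (-0.61), miR-122 (-0.56), let-7f (-0.60), let-7a (-0.55), miR-23b (-0.57), miR-21 (-0.49), miR-223 (-0.56), miR-1937b (-0.50) and miR-720 (-0.57). Within slides the differences in detected miRNAs (-27.7), log2 percentile (-0.62) and log2 labelling spike-in (-0.69) missed the adjusted threshold, in a design whose smallest exact p is 0.0185, which the spike-in reached. The other 1523 values of 44 named miRNAs kept their direction or stayed uncalled in 1480, and 43 became called the same way. The cause of these changes was not tested. The normexp setting (on median signals), the detection flag and the removal of 3 arrays together were chosen after seeing the data. No paired analysis was possible because the groups share no replicate numbers.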
